A study of Bos taurus with 4 samples.

Results

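The transcription factors and RNA-binding proteins that keep early embryonic cells pluripotent were examined in bovine (Bos taurus) morulae after culture in high glucose. The 10 genes were POU5F1, NANOG, SOX2, SALL4, KLF4, KLF5, ESRRB, LIN28A, DPPA3 and PRDM14. They were found by their symbol in the platform annotation, where LIN28A is listed under its older symbol LIN28, and they had 14 of the 43794 transcript probes of the array. Of the 14 probes, 10 gave a signal above background and were tested, among 19645 tested probes in all, and these covered 8 of the 10 genes.

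Embryos came from in vitro fertilization of oocytes of slaughterhouse ovaries. The high glucose (HG) embryos spent day 0 to day 3 in synthetic oviductal fluid with 5 mM glucose and then moved to control medium until day 5. The control (CTL) embryos were cultured with 0.2 mM glucose over the same first step and in control medium afterwards. Each RNA sample was a pool of 10 morulae taken 120 h after fertilization, and each of 4 arrays, areas of 1 slide, set 1 HG pool against 1 CTL pool. The HG RNA was labelled with Cy5 on arrays 1 and 2 and with Cy3 on arrays 3 and 4. The RNA was amplified by T7 transcription before labelling, which can change the proportions between transcripts. The labels give the breed, Holstein, for only 1 channel of each array, and none of them says whether pools stem from different fertilization runs, so the spread between arrays may be partly technical.

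Pluripotency in the mammalian embryo rests on a core of DNA-binding factors. POU5F1 (OCT4) and SOX2 bind DNA as partners at shared enhancers, and NANOG acts with them to hold back differentiation. In the blastocyst these factors mark the inner cell mass, but cattle differ from mice in that POU5F1 is still present in the trophectoderm, the outer layer that forms the placenta. Kruppel-like factors and ESRRB reinforce the core in mouse cells, PRDM14 represses genes of differentiation and of DNA methylation in the mouse, LIN28A blocks maturation of the let-7 microRNAs, and DPPA3 (STELLA) is a maternally stored protein that guards methylation in the early mouse embryo. The morula is the stage before the inner cell mass and the trophectoderm have formed. In a pool of whole embryos, fewer cells of a type and less RNA per cell cannot be told apart.

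Signals are raw spot intensities, or log2 signals normalised within and between arrays. Neither scale compares one probe with another, since probes differ in binding. Raw intensities of Cy3 and Cy5 are not on a common scale either, so for dim probes a normalised ratio can point the other way from the raw values of its array. Ratios are log2 values of HG over CTL on 1 array, so a positive value means a higher signal in HG. Means are given ± SD over the 4 arrays (n = 4). A probe was above background where it exceeded the mean plus 2 SD of the log2 signals of the negative control spots in its channel, which came to raw intensities of 152, 153, 276 and 202 for HG and 216, 207, 147 and 141 for CTL on arrays 1 to 4. Median raw intensities were 159 to 287 in HG and 153 to 212 in CTL. A spot-to-spot SD of 0.12, the median for control probes spotted repeatedly on 1 array, is small beside the SD of 0.44 over the 4 arrays for a typical tested probe.

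The arrays did not all behave alike. The tested markers of cumulus, granulosa and stromal cells (15 of 25 listed) had a median ratio of -2.02 on array 1 and 2.11 on array 3, against 0.08 on array 2 and -0.25 on array 4. Their mean log2 signals on arrays 1 to 4 were 8.49, 9.01, 11.96 and 10.06 in the HG pools, against 10.68, 8.87, 9.88 and 10.64 in the CTL pools. HAS2, PTGS2, GREM1, VCAN, CD44, FSHR, AMH, CYP11A1, HSD3B1 and INHA, further genes of that list, were not tested because of low signal. Over all tested probes the ratios of arrays 1 and 3 correlated at -0.44, while the other pairs of arrays lay between 0.04 and 0.23. These are descriptions over probes that share the same RNA pools. Because arrays 1 and 3 had HG in opposite dyes, means that depend on these arrays are also given with the sign of array 1 or array 3 turned. The part of such cells, or of a reversed dye record, in the ratios of the pluripotency genes was not tested.

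By limma with Benjamini-Hochberg adjustment over the 19645 tested probes, 0 of the 10 pluripotency probes passed 0.05, and 0 of all tested probes did (0% called; smallest adjusted p = 0.687). At an unadjusted p under 0.05, 2 of the 10 were lower in HG, against 3.82% of all tested probes, and 0 were higher, against 3.31%. The probes with such a p were the POU5F1 probe and 1 of the KLF5 probes. These p-values were not stable: POU5F1 stayed under 0.05 in 12 of 21 alternatives and KLF5 EMBV3_19900 in 7 of 20. On the authors' deposited ratios the unadjusted limma p was 0.0924 for POU5F1 and 0.0589 for KLF5 EMBV3_19900, so that 0 of the 10 were lower by this rule. With spot medians it was 0.0591 and 0.0845, and in a fit of the separate channels with the array as a block 0.112 and 0.0512. Both were also lower on all 4 arrays, which held for 7.31% of all tested probes. No pluripotency probe was higher on all 4 arrays, against 7.47% of all tested probes. By mean, 3 of the 10 were higher and 7 lower in HG, with a median of -0.18, beside 9807 higher and 9838 lower among all tested probes (median 0.00). For all 14 probes the range of the HG signals overlapped that of the CTL signals. This sets aside the pairing of pools on each array, and the share over all tested probes is not given here. A term for the dye had an unadjusted p under 0.05 for 0 of the 10 probes, against 7.79% of all tested probes.

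**Figure D1:**
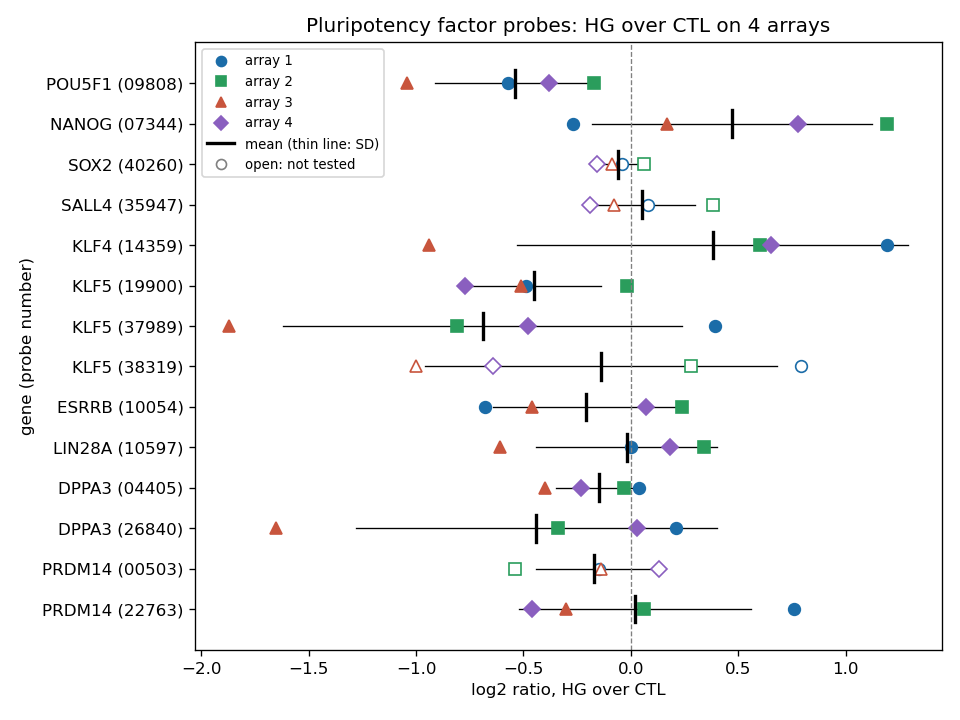
Log2 ratio of HG over CTL (x axis) of each of the 14 probes (y axis, gene with probe number) on arrays 1 to 4 (coloured symbols), with the mean (thick bar) and the SD over the 4 arrays (thin line); open symbols are probes that were not tested for low signal. POU5F1 and KLF5 probe EMBV3_19900 lie below 0 on all 4 arrays, and KLF4, KLF5 probe EMBV3_37989 and DPPA3 probe EMBV3_26840 have array 3 far below the others.

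Among the core factors, POU5F1 had the lower signal in HG on all 4 arrays. Its raw intensities in the HG pools of arrays 1 to 4 were 2347, 3084, 1348 and 2286, against 3686, 3941, 2358 and 2648 in the CTL pools beside them. The groups overlapped, since the HG pool of array 2 exceeded the CTL pools of arrays 3 and 4. The ratios were -0.57, -0.17, -1.04 and -0.38, with a mean of -0.54 ± 0.37, a 1.45-fold lower signal in HG (95% interval -1.01 to -0.06; unadjusted p = 0.0324, limma adjusted p = 0.687). The mean was -0.37 without array 3 and -0.28 on arrays 2 and 4 alone, and it was -0.02 with the sign of array 3 turned and -0.26 with that of array 1 turned. The dye term was 0.17. In the authors' deposited table the POU5F1 ratios, turned to HG over CTL, were -0.14, -0.09, -1.15 and -0.42. Those values are below 0 on all 4 arrays too, and array 1 is nearer to 0 there. On the deposited ratios 6.55% of all tested probes were lower on all 4 arrays.

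POU5F1 signal also differed between pools of 1 group. The normalised log2 signals of the HG pools were 11.18, 11.72, 10.19 and 10.99, and those of the CTL pools 11.75, 11.89, 11.22 and 11.37. In both groups array 3 was the lowest and array 2 the highest. The HG pool of array 3 lay 0.99 below the median of the other HG pools (-0.99), and the CTL pool of that array lay 0.52 below its own (-0.52).

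NANOG went the other way on most arrays. Its raw intensities were 2878, 2026, 3558 and 4276 in HG pools, against 3650, 1099, 3041 and 2293 in CTL pools. The HG pool was higher on arrays 2, 3 and 4 and lower on array 1. The ratios were -0.27, 1.19, 0.17 and 0.78, with a mean of 0.47 ± 0.65, or 1.38-fold (95% interval -0.22 to 1.16; limma adjusted p = 0.826). On array 2, which had the largest ratio, the pool was the lowest of its group in both HG and CTL. Against the median of the other pools of its group, the CTL pool differed by -1.55 and the HG pool by -0.53. That CTL pool lay at a log2 signal of 10.00, against 11.13 to 11.76 in the other CTL pools, whereas the HG pools ranged from 11.19 to 11.91. Without array 2 the mean was 0.23, and without array 1 it was 0.72.

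For NANOG the sign on arrays 1 and 3 depended on the processing. In the authors' deposited table the ratios were 0.16, 1.17, 0.01 and 0.76, higher in HG on all 4 arrays. On the deposited ratios this held for 8.24% of all tested probes. Array 3 lay at 0.01 there, so the shared direction rests on arrays 1, 2 and 4. With median centring in place of the loess curve the NANOG ratios were -0.13, 1.13, -0.20 and 0.72, higher on 2 of 4. Arrays 2 and 4 kept their direction and size in each of these versions, and on these arrays alone the mean was 0.99 (limma adjusted p = 0.363). With array 3 turned the mean was 0.38, and with array 1 turned 0.61. The dye term was -0.01.

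**Figure D2:**
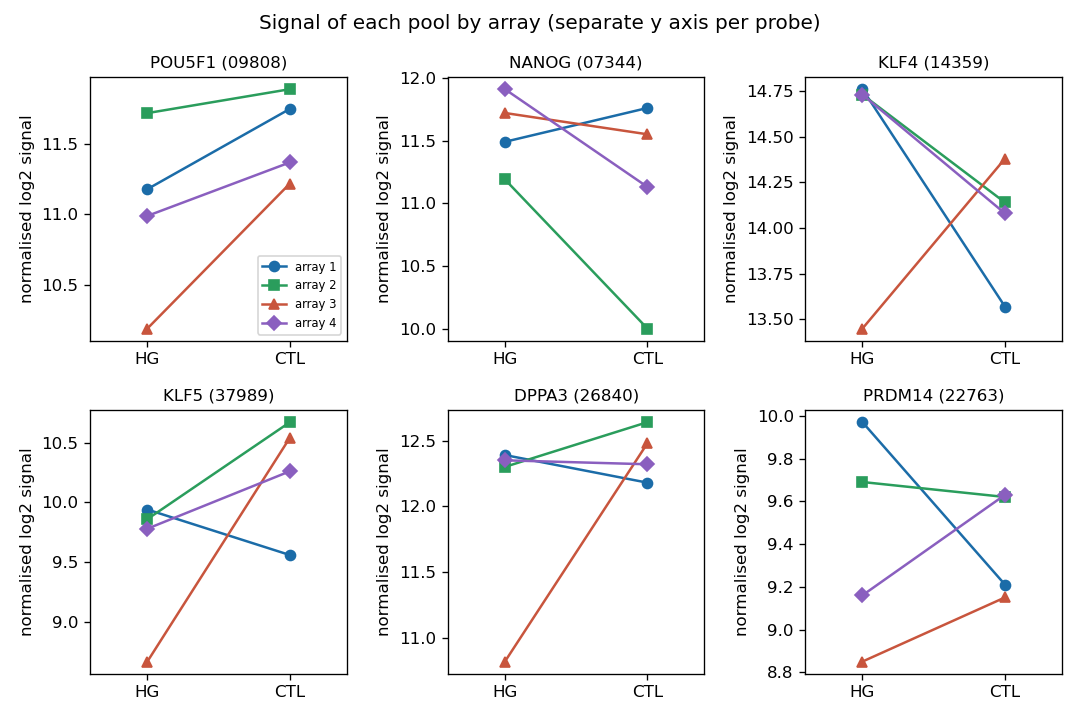
Normalised log2 signal (y axis, a separate scale for each probe) of the HG pool and the CTL pool of each array (x axis), joined by a line for each array, for 6 brighter probes. All POU5F1 lines run up towards CTL, while the HG pool of array 3 is the lowest HG pool for POU5F1, KLF4, KLF5 probe EMBV3_37989, DPPA3 probe EMBV3_26840 and PRDM14 probe EMBV3_22763, and the CTL pool of array 2 is the lowest CTL pool for NANOG.

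The order of NANOG and POU5F1 was the same on every array. The ratio of NANOG exceeded that of POU5F1 by 0.29, 1.37, 1.21 and 1.16 on arrays 1 to 4, a mean of 1.01 ± 0.48. An exact sign-flip test gave p = 0.125, the smallest that 4 arrays allow. In the authors' deposited values the differences were 0.31, 1.26, 1.16 and 1.18. With array 3 turned the mean difference was 0.40, and with array 1 turned 0.86. The pair was picked after the values were seen, and 7 of the 28 pairs among the 8 tested genes kept 1 order on all 4 arrays. These pairs have genes and pools in common. The figure for pairs of all tested genes is not given here, so no more is read from the 7. The ratio exceeded that of POU5F1 on all 4 arrays for 41.5% of the 8710 other tested genes, and it was below that of NANOG on all 4 for 15.3%.

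SOX2, the DNA-binding partner of POU5F1, could not be tested. Its probe read 139, 173, 282 and 206 in HG pools and 184, 219, 160 and 161 in CTL pools, above background on 3 arrays in each group and close to the limit throughout. The ratios, from -0.16 to 0.06, are those of a signal near background and give no measure of the transcript. SALL4, a zinc finger factor that activates POU5F1 in mouse cells, read 134, 158, 227 and 163 in HG pools and 170, 174, 118 and 121 in CTL pools. It was above background in 1 HG pool and in 0 CTL pools, so no ratio is read from it.

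The Kruppel-like factors KLF4 and KLF5 bind overlapping sets of sites in mouse embryonic stem cells, and KLF5 is also needed for the mouse trophectoderm. KLF4 had the brightest probe of the set. Its raw intensities were 30785, 28453, 10709 and 26661 in HG pools, against 10872, 18232, 23049 and 18371 in CTL pools. HG was higher on arrays 1, 2 and 4 and lower on array 3, where the HG pool was the dimmest of all 8 pools. The ratios were 1.19, 0.60, -0.94 and 0.65, with a mean of 0.38 ± 0.91 (95% interval -0.54 to 1.29; limma adjusted p = 0.941).

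The mean of KLF4 depended on arrays 1 and 3. It was 0.81 without array 3 (limma adjusted p = 0.498), 0.84 with array 3 turned (limma adjusted p = 0.447) and -0.22 with array 1 turned. On arrays 2 and 4 alone it was 0.62. The dye term, 0.52, was the largest in size among the tested pluripotency probes. In log2 signal the HG pool of array 3 lay at 13.45, against 14.73 to 14.76 in the other HG pools, and the CTL pool of array 1 lay at 13.57, against 14.08 to 14.38 in the other CTL pools. So the KLF4 ratio of array 3 followed the HG pool, and that of array 1 the CTL pool.

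KLF5 had 3 probes, of which 2 were tested. Probe EMBV3_19900 read 298, 386, 554 and 338 in HG pools and 553, 497, 544 and 422 in CTL pools. Its ratios were -0.49, -0.02, -0.51 and -0.77, a mean of -0.45 ± 0.31 or 1.36-fold lower in HG (95% interval -0.89 to -0.01; unadjusted p = 0.0464, limma adjusted p = 0.688). Array 2 was at 0.00 in the authors' deposited table and at 0.11 with spot medians, so that the shared direction rests on 3 arrays. Without array 3 this probe had a mean of -0.43, with array 3 turned -0.19 and with array 1 turned -0.21.

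KLF5 probe EMBV3_37989 was brighter, with 969, 805, 559 and 1041 in HG pools and 950, 1680, 1438 and 1223 in CTL pools. Its ratios were 0.39, -0.81, -1.87 and -0.48, with a mean of -0.69 ± 0.93 (95% interval -1.62 to 0.23; limma adjusted p = 0.795). The array 3 value was the lowest ratio of any pluripotency probe on any array. Without it the mean was -0.30, with array 3 turned it was 0.24 and with array 1 turned -0.89. The third KLF5 probe, EMBV3_38319, was above background in 2 HG and 3 CTL pools and was not tested, with ratios of 0.79, 0.28, -1.0 and -0.64. The 3 KLF5 probes shared a sign on 2 of the 4 arrays, arrays 3 and 4, where all were lower in HG, and on array 3 they differed by up to 1.36. Which transcripts of KLF5 each probe reads is not given in the sources used here.

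ESRRB, an orphan nuclear receptor of the mouse naive network, was weakly detected. Its raw intensities were 192, 229, 348 and 310 in HG pools and 399, 261, 272 and 228 in CTL pools. The ratios of -0.68, 0.24, -0.46 and 0.07 gave a mean of -0.21 ± 0.43 (limma adjusted p = 0.944). HG was lower on arrays 1 and 3 and higher on arrays 2 and 4. On arrays 2 and 4 alone the mean was 0.16, with array 3 turned 0.03 and with array 1 turned 0.13.

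PRDM14, known in the mouse for its part in germ cell specification, had 2 probes. Probe EMBV3_22763 read 988, 708, 646 and 699 in HG pools and 769, 848, 579 and 787 in CTL pools, with ratios of 0.76, 0.06, -0.30 and -0.46. These gave a mean of 0.02 ± 0.54 (limma adjusted p = 0.998). The arrays with HG in Cy5 were above 0 and those with HG in Cy3 below it, and the dye term of 0.40 had an unadjusted p of 0.0823. The mean was -0.36 with array 1 turned and 0.17 with array 3 turned. Probe EMBV3_00503 was above background in 2 HG and 3 CTL pools, was not tested, and had ratios of -0.15, -0.54, -0.14 and 0.13. The 2 probes shared a sign on 1 array.

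LIN28A lay close to background, with 224, 216, 307 and 244 in HG pools and 313, 228, 252 and 164 in CTL pools. Its ratios were 0.00, 0.34, -0.61 and 0.18, a mean of -0.02 ± 0.42 (limma adjusted p = 0.997). Array 3 was again the lowest, and with its sign turned the mean was 0.28, while with array 1 turned it was -0.02.

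DPPA3 had a bright and a dim probe. The bright one, EMBV3_26840, read 5367, 4881, 1985 and 5505 in HG pools and 4560, 6699, 5750 and 5164 in CTL pools. Apart from the HG pool of array 3, all pools lay within a narrow band of log2 signal, 12.30 to 12.39 in HG and 12.18 to 12.64 in CTL, and that HG pool lay at 10.82. The ratios were 0.21, -0.34, -1.65 and 0.03, with a mean of -0.44 ± 0.84 (limma adjusted p = 0.905). Without array 3 the mean was -0.03, with array 3 turned it was 0.39 and with array 1 turned -0.54.

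The dim DPPA3 probe, EMBV3_04405, read 165, 186, 326 and 240 in HG pools and 221, 246, 238 and 199 in CTL pools. Its ratios of 0.04, -0.03, -0.40 and -0.23 gave a mean of -0.15 ± 0.20 (limma adjusted p = 0.941), or 0.04 with array 3 turned and -0.17 with array 1 turned. The DPPA3 probes had the same sign on 3 of 4 arrays, and on array 3 both were lower in HG but differed by 1.26. In the RefSeq annotation of assembly ARS-UCD2.0, DPPA3, NANOG and SLC2A3, a glucose transporter gene, follow one another as protein-coding neighbours. SLC2A3 had ratios of -1.0, 0.09, -0.60 and 0.02 (mean -0.37 ± 0.52, limma adjusted p = 0.844). With array 1 turned its mean was 0.13, and with array 3 turned -0.07.

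The pluripotency genes stood lowest on array 3. On that array 9 of the 10 tested probes were lower in HG, with ratios from -1.87 to 0.17 and a median of -0.56, while 49.2% of all tested probes were lower there. The medians of the 10 probes on arrays 1, 2 and 4 were 0.02, 0.02 and -0.10. Another list was lower still on array 3. The tested trophectoderm markers had a median of -1.37 there, with 9 of 11 lower, while the 25 tested genes of the wider pluripotency network had a median of -0.09, beside -0.07, -0.04 and 0.02 on arrays 1, 2 and 4. Array 3 held the lowest of the 4 ratios for 6 of the 10 probes, beside 29.5% of all tested probes. The HG pool of array 3 was the lowest HG pool for 6 of the 10 probes, beside 33.6% of all. For 3 of the 6 brighter probes the low value lay in the HG channel. Against the median of the other pools of their own group, the array 3 HG and CTL pools differed by -1.29 and 0.30 for KLF4, by -1.19 and 0.28 for KLF5 probe EMBV3_37989, and by -1.53 and 0.16 for DPPA3 probe EMBV3_26840. Other probes did not share this. Of the other brighter probes, POU5F1 (-0.99 and -0.52) and PRDM14 probe EMBV3_22763 (-0.84 and -0.47) were low in both pools. NANOG (0.23 and 0.42) was low in neither. On array 3 the HG and CTL pools differed by 0.37 and 0.38 for KLF5 probe EMBV3_19900 and by 0.14 and 0.43 for DPPA3 probe EMBV3_04405, so that neither HG pool was low. For LIN28A they differed by -0.32 and 0.63, and for ESRRB by -0.19 and 0.32, with the larger part in the CTL pool. The HG pool of array 3 is the one in which the cumulus and stromal markers had their highest mean signal, 11.96, and the part of those cells in the lower pluripotency signals was not tested.

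**Figure D3:**
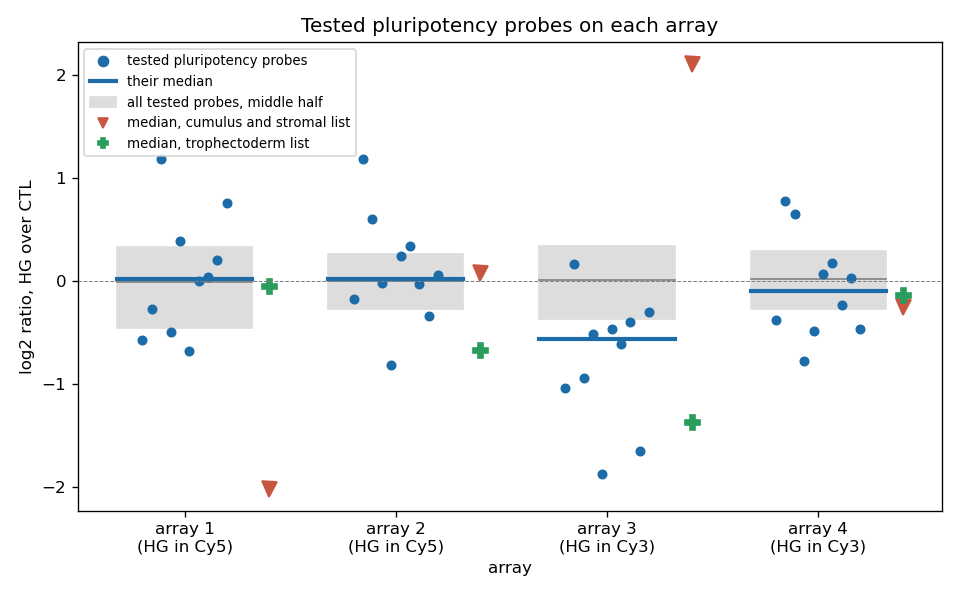
Log2 ratio of HG over CTL (y axis) of the 10 tested pluripotency probes (blue points, blue line at their median) on each array (x axis), over the quartile range of all tested probes (grey), with the median of the cumulus and stromal markers (red triangle) and of the trophectoderm markers (green cross). On array 3 the pluripotency median is -0.56 and 9 of 10 probes lie below 0, while the cumulus and stromal median is 2.11; on array 1 that median is -2.02 and the pluripotency median 0.02.

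Other genes of the pluripotency network were described from a list of 50 textbook genes outside the 10 members, of which 41 had a probe and 25 were tested. By mean, 9 were higher and 16 lower in HG, with a median of -0.07. Over all tested genes 3994 were higher and 4718 lower, with a median of -0.02. KLF17, TEX10, ETV5 and TCL1A, all higher, passed the background rule through HG alone. HCFC1 and DPPA4, both lower, passed it through CTL alone, so none of these directions is support for a difference. With signal above background required in both groups on all 4 arrays, 19 genes remained, with a median of -0.10. By limma 0 of the 25 passed the adjusted threshold, and 0 had an unadjusted p under 0.05, beside 2.71% higher and 4.63% lower of the 8712 tested genes. On all 4 arrays 2 of the 25 were higher and 3 lower, beside 5.99% and 8.12% of all tested genes.

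STAT3, which carries the signal of leukaemia inhibitory factor in mouse stem cells, had the smallest p of the list, with a mean of -0.40 ± 0.30 and ratios below 0 on all 4 arrays (limma adjusted p = 0.721). MYCN, a growth-promoting transcription factor, was at -0.47 ± 0.49 (limma adjusted p = 0.758), also below 0 on all 4 arrays, with its lowest value of -1.12 on array 3. JARID2, a partner of the Polycomb complex, was at -0.55 ± 0.69 (limma adjusted p = 0.785). On the other side, KLF17, a relative of KLF4, was at 0.44 ± 0.56 (limma adjusted p = 0.813). SALL1, a relative of SALL4, was at 0.24 ± 0.14 and TEX10, a partner of SOX2 in mouse stem cells, at 0.26 ± 0.21, with both above 0 on all 4 arrays (limma adjusted p = 0.823 and 0.832). KLF17 and TEX10 were above background in all 4 HG pools but in only 3 and 2 CTL pools. They were tested through HG alone, so their higher HG values are no support for a difference. TEX10 is also among the genes counted above as higher on all 4 arrays. With array 3 turned the mean was -0.01 for STAT3, 0.09 for MYCN and 0.16 for JARID2, and with array 1 turned -0.21, -0.41 and -0.23. For KLF17, SALL1 and TEX10 it was 0.18, 0.07 and -0.01 with array 1 turned, and 0.50, 0.20 and 0.11 with array 3 turned. NODAL, a ligand of the TGF-beta family, was at -0.07 ± 0.27 (limma adjusted p = 0.981). TFCP2L1, CRIPTO (TDGF1), FGF4 and LIFR had probes but not enough signal to be tested.

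The trophectoderm markers had a lower median than the network. Of 18 listed, 11 were tested, with 3 higher and 8 lower in HG and a median of -0.46, beside 54.2% lower over all tested genes. At an unadjusted limma p under 0.05, 5 of the 11 were lower and 1 was higher, beside 4.63% and 2.71% of all tested genes. ELF5, higher by mean, and IFNT, lower by mean, were above background in all 4 HG pools but in only 2 and 3 CTL pools. KRT8, a keratin of simple epithelia, was at -1.81 ± 0.76 and GATA2, a trophectoderm transcription factor, at -1.26 ± 0.81 (limma adjusted p = 0.687 for each), with 0 of the list past the adjusted threshold. KRT18, the partner of KRT8, was at -1.39 ± 1.30 (limma adjusted p = 0.687), and TFAP2C at -0.09 ± 0.91 (limma adjusted p = 0.992). With array 3 turned the mean was -0.89 for KRT8, -0.30 for GATA2, -0.39 for KRT18 and 0.60 for TFAP2C. With array 1 turned these means were -0.96, -0.89, -1.53 and -0.45. ID2, an inhibitor of helix-loop-helix factors that was picked after its values were seen, went against the list median, with ratios of 0.54, 0.79, 0.85 and 1.65 (mean 0.96 ± 0.48; unadjusted p = 0.00617, limma adjusted p = 0.687). CDX2, GATA3 and TEAD4 were on the array but below the signal needed for a test. Of the primitive endoderm markers 9 were tested, with 0 past the adjusted threshold. By mean 1 was higher and 8 lower in HG, with a median of -0.27, beside 54.2% lower over all tested genes. The medians of the 9 on arrays 1 to 4 were -1.14, -0.36, 0.74 and -0.48, and 7 of the 9 were higher on array 3. GATA4 ranged from -3.57 on array 1 to 2.57 on array 3 (mean -0.27 ± 2.54; limma adjusted p = 0.989), and its mean was 1.51 with array 1 turned and -1.56 with array 3 turned. The higher one was FOXA2, a forkhead factor of endoderm, also picked after its values were seen, with ratios of 0.99, 1.36, 0.28 and 1.47 (mean 1.03 ± 0.54; unadjusted p = 0.00635, limma adjusted p = 0.687). SOX17 was not tested and no probe was named GATA6. The oocyte list, 6 genes tested, had medians between 0.03 and 0.28 on the 4 arrays. Of these genes, BMP15, ZP3 and ZP4 were above background in all 4 HG pools but in only 3 CTL pools. They were tested through HG alone, so the positive medians are no support for a difference.

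The genes whose 4 ratios came closest to those of POU5F1 were PSME4 (-0.50, -0.09, -0.93 and -0.36), LOC100138908 and MRPL20, with mean absolute differences of 0.07, 0.10 and 0.11. Those closest to NANOG were PDE3B (-0.03, 1.16, 0.12 and 0.84), CMTR1 and NMNAT1, at 0.10, 0.14 and 0.17. They were taken from 6154 genes with a mean absolute ratio of at least 0.3, so near matches over 4 arrays are plentiful.

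**Figure D4:**
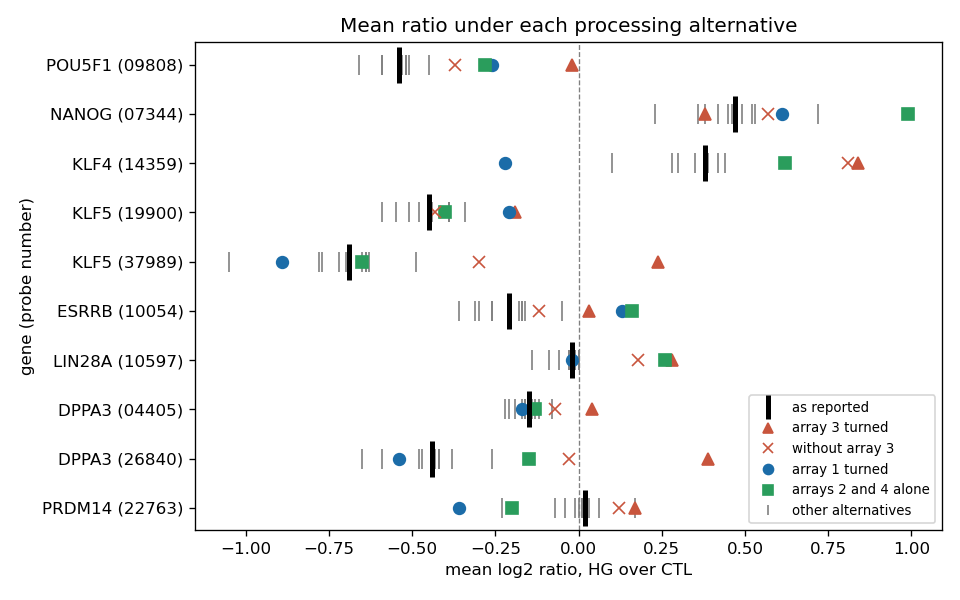
Mean log2 ratio of HG over CTL (x axis) of each tested pluripotency probe (y axis) as reported (black bar), with array 3 turned (red triangle), without array 3 (red cross), with array 1 turned (blue circle), on arrays 2 and 4 alone (green square) and under the other processing alternatives (grey ticks). NANOG stays above 0, between 0.23 and 0.99, and POU5F1 and KLF5 probe EMBV3_19900 below it, up to -0.02 and -0.19, while the other 7 probes have values on both sides of 0, most widely KLF4, KLF5 probe EMBV3_37989 and DPPA3 probe EMBV3_26840.

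The alternatives moved the means of the probes by different amounts. Of the 21 alternatives, 14 could move the mean of a probe, and the other 7 (filters, models and a normalization between arrays that keeps ratios) could change only its p. In those 14 NANOG lay above 0, between 0.23 without array 2 and 0.99 on arrays 2 and 4 alone. POU5F1 lay below 0, between -0.66 and, with array 3 turned, -0.02, and KLF5 probe EMBV3_19900 too, between -0.59 and -0.19. LIN28A and PRDM14 probe EMBV3_22763, with means near 0 (-0.02 and 0.02), changed sign in several alternatives. KLF4 ranged from -0.22 to 0.84, KLF5 probe EMBV3_37989 from -1.05 to 0.24 and DPPA3 probe EMBV3_26840 from -0.65 to 0.39. In none of these alternatives did a pluripotency probe pass the adjusted threshold, the smallest adjusted p being 0.363.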

How the data were processed

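Two-colour scanner files gave the mean intensity and local background of 45220 spots per array at 532 nm (Cy3) and 635 nm (Cy5), deposited without correction or normalization, per the file headers. A deposited table held the authors' log2 ratios, made with limma of unstated version per the submitters' processing notes. Compared with the scanner files, these ratios are Cy5 over Cy3 with no array turned (r = 0.984 to 0.996), with column medians of 0.02, 0.00, 0.00 and -0.01. Their exact correction is unknown.

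Intensities were background corrected (normexp, offset 50) and loess-normalized within arrays in limma 3.58.1 under R 4.3.3, with control spots at weight 0. Ignored spots, 29 to 151 per array, became missing values. Signal levels were then quantile-normalized on average intensity. Background limits came from 153 negative control spots per array, without those marked as ignored. A probe was tested where all 4 HG channels, or all 4 CTL channels, exceeded the limit. Ratios were turned to HG over CTL by the labels and fitted against 0 with lmFit and eBayes, with Benjamini-Hochberg adjustment over all tested probes. The fit was tested on simulated data. No pluripotency probe was saturated at the ceiling of 65535. Precision is limited by having 4 arrays.

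Symbols came from the platform annotation, which named 21790 probes and left 22004 unnamed here; 982 symbols were updated through RefSeq synonyms. A gene outside the members is given by its brightest tested probe. All member probes are named. The network genes named are the 6 with the smallest p plus fixed signalling genes, the lineage genes are a fixed set, and the 3 nearest patterns are given for POU5F1 and NANOG. The members, lists and tests were chosen with earlier results of these data known. Alternatives were left-out arrays, turned arrays, arrays 2 and 4 alone, other background corrections, normalizations, filters and models, spot medians, and the deposited ratios; local background means and kept negative spots were added after seeing the data. No sequences are given.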

Additional observations from a re-analysis of the deposited data

How the results depend on the processing

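The count of tested probes past the adjusted threshold was 0 under all 21 alternatives, with the smallest adjusted p at 0.0598 on arrays 2 and 4 alone, and 0 pluripotency probes passed in any of them, leaving out each array included. The median of the tested pluripotency probes, -0.18, lay between -0.28 and -0.05 with each array left out and was 0.20 with array 3 turned. The network median, -0.07, lay between -0.12 and -0.09 with each array left out, was -0.01 with array 3 turned, -0.15 with median centring and 0.02 with spot medians. With array 3 turned, POU5F1 was at -0.02, KLF5 probe EMBV3_37989 at 0.24 and DPPA3 probe EMBV3_04405 at 0.04. Unadjusted calls numbered 651 higher and 750 lower, against 345 and 1038 with median centring, 294 and 433 without array 2, 318 and 426 without array 4, and 882 and 1118 with array 3 turned. Higher calls outnumbered lower ones on arrays 2 and 4 alone (1081 and 957), on the deposited ratios (698 and 625) and with array 1 turned (778 and 729). With marked negative control spots kept, an alternative chosen after seeing the data, 15591 probes were tested and 8 of the pluripotency probes, without LIN28A and DPPA3 probe EMBV3_04405. Each ratio is itself a paired comparison of the HG and CTL pools of 1 array. A fit of the separate channels with the array as a block gave 0 adjusted calls and unadjusted p-values of 0.112 for POU5F1 and 0.225 for NANOG. SOX2, SALL4, 1 KLF5 probe and 1 PRDM14 probe were limited by signal near background.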
